A study of Homo sapiens with 12 samples.

Results

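The snoRNA host RNAs GAS5, SNHG1, SNHG5, SNHG6, SNHG8, SNHG12, SNHG15, SNHG16, ZFAS1 and EPB41L4A-AS1 were followed in OPM2 cells, an established human multiple myeloma line of malignant plasma cell origin. They were chosen by name, with earlier results of these data known, as noncoding genes that carry small nucleolar RNAs in their introns. Each of the 10 symbols matched 1 of the 63152 gene identifiers in the deposited count table, and all 10 passed the expression filter that left 13180 tested genes. Polyadenylated transcripts were counted from their 3′ ends (QuantSeq) in 12 bulk libraries, with 3 libraries, labelled as biological triplicates, in each of 4 groups. The cells had been exposed for 2 h to 18DS at 250 nM, to JQ1 at 250 nM, to BKM120 at 1 µM or to the DMSO vehicle. 18DS is a chimeric small molecule that, per the series title, inhibits both PI3K and BET proteins. JQ1 occupies the bromodomains of BET proteins, and BKM120 (buparlisib) inhibits PI3K. No library received JQ1 and BKM120 together, all data came from 1 cell line, and the labels do not say whether the triplicates were grown or treated on separate days.

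Small nucleolar RNAs guide the methylation (box C/D) or pseudouridylation (box H/ACA) of ribosomal and spliceosomal RNA, and in human cells most of them are cut out of introns after splicing. In the genes followed here the spliced exons encode no long protein, so the intron is the established product, although several of the spliced RNAs have been studied as regulators in their own right. Many such hosts begin with a terminal oligopyrimidine (TOP) tract, a C followed by pyrimidines at the 5′ end, which they share with ribosomal protein mRNAs and through which mTORC1, downstream of PI3K, controls translation. Because ribosomes on their short reading frames soon meet a stop codon, spliced hosts such as GAS5 are also known substrates of nonsense-mediated decay (NMD), and their level depends on translation as well as on transcription.

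The start of each gene is shown because the TOP tract is a feature of the annotated start. RefSeq promoter windows of build GRCh38.p14 were at hand for 8 of the 10 genes, and SNHG6 and SNHG15 are named only. The lines give 20 bases before and 30 bases from the annotated start on, 5′ to 3′, for SNHG12 at chr1:28581844-28581893 (minus strand), SNHG5 at chr6:85678704-85678753 (minus strand), SNHG8 at chr4:118278742-118278791 (plus strand), SNHG16 at chr17:76557744-76557793 (plus strand), ZFAS1 at chr20:49278622-49278671 (plus strand), SNHG1 at chr11:62855856-62855905 (minus strand), GAS5 at chr1:173869016-173869065 (minus strand), EPB41L4A-AS1 at chr5:112160506-112160555 (plus strand). Capitals mark a run of C followed by at least 4 pyrimidines that begins within 10 bases of the annotated start.
SNHG12: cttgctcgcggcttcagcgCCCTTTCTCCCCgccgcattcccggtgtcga
SNHG5: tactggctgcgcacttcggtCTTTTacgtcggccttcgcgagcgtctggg
SNHG8: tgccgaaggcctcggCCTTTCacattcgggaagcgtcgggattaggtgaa
SNHG16: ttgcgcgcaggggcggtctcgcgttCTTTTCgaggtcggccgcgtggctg
ZFAS1: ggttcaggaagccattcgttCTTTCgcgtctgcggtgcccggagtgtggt
SNHG1: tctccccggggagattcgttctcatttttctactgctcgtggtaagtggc
GAS5: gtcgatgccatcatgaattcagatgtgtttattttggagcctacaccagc
EPB41L4A-AS1: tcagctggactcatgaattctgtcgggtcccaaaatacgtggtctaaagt
Such a run was present in 5 of the 8 windows, those of SNHG12, SNHG5, SNHG8, SNHG16 and ZFAS1. The same search matched 33.5% of the 35116 RefSeq windows and 64 of 77 windows of cytosolic ribosomal protein genes. The run of SNHG12 was 12 bases long, and the others were 5 or 6 bases long. The run began at the annotated first base in SNHG5 and ZFAS1 and 1 base before it in SNHG12. In SNHG8 it began 5 bases before the first base, and in SNHG16 at base 6. Annotated starts can differ from the starts used in OPM2 cells, so a window without capitals says only that these letters are not there. Among the genes with a run, SNHG12 was called against DMSO with each compound, SNHG16 with 18DS, and SNHG5, SNHG8 and ZFAS1 with none. Among those whose window had no run, SNHG1 was called with 18DS and JQ1, GAS5 with 18DS, and EPB41L4A-AS1 with 18DS and BKM120.

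Counts were scaled for depth with TMM factors and are given as CPM, and 1 robust edgeR quasi-likelihood fit over all 12 libraries gave each log2 fold change, its standard error (SE) and a Benjamini-Hochberg adjusted p over the 13180 genes. A gene was called at an adjusted p under 0.05. Since a 3′ count depends on how well each 3′ end is captured, levels are compared between groups and not between genes. In bulk libraries, fewer cells with an RNA and less of it per cell cannot be told apart. Total counts per library lay between 5882214 and 7292895 for 18DS, between 5501895 and 7692013 for JQ1, between 5563788 and 6883854 for BKM120 and between 5940610 and 6594995 for DMSO. Together the 10 RNAs made up 2055 to 2290 CPM of the 18DS libraries, 2149 to 2249.6 CPM of the JQ1 libraries, 1712 to 1904 CPM of the BKM120 libraries and 1969 to 2143 CPM of the DMSO libraries. The BKM120 libraries were the lowest and did not overlap with any other group. SNHG6 and SNHG8 weighed most in these sums, with means of 674 and 432 CPM in DMSO and 542 and 366 CPM in BKM120. The 18DS replicate 2 library stood apart from the other libraries on the third principal component (score 26.7 against -13.7 to 10.9 elsewhere), and without it 5 of the 6 host calls of 18DS against DMSO remained, with log2 fold changes of 0.56 for SNHG1, 0.45 for SNHG12, -0.73 for SNHG15, -0.42 for EPB41L4A-AS1 and -0.28 for SNHG16. The marker levels and sums that follow are CPM of library totals without TMM factors, so they are not on the scale of the host sums. The 11 plasma cell markers made up 4206 to 4792 CPM of the 18DS libraries and 4749.6 to 5074 CPM of the JQ1 libraries. They made up 5088 to 5209.9 CPM of the BKM120 libraries and 5372 to 5460.2 CPM of the DMSO libraries. JCHAIN, XBP1, SDC1, TNFRSF17 and IRF4 were present in every library, and CD38 lay at 3.40 to 6.86 CPM. Of these markers, 6 fell with 18DS, 6 fell with JQ1, and 1 rose and 2 fell with BKM120. Over all tested genes, 11.0% fell with 18DS, 3.45% fell with JQ1, and 4.07% rose and 4.14% fell with BKM120. In 18DS against JQ1, 0 of the markers were called by edgeR (3 at an unadjusted p under 0.05, 0 by DESeq2 and limma), beside 4.16% of all genes. The part of these markers in the host results was not tested. Markers of T and NK cells, myeloid cells, and epithelial cells or fibroblasts summed to 0.152 to 1.44, 0.162 to 3.20 and 0.823 to 3.49 CPM, and 4 of these 25 markers, CD3D, NKG7, FCGR3A and COL3A1, had no count in any library. Of the 25, 1 (LYZ) was tested and it was not called.

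The 10 hosts did not move as a block. With 18DS, SNHG1, SNHG12 and GAS5 rose and SNHG15, EPB41L4A-AS1 and SNHG16 fell against DMSO. With JQ1, SNHG1 and SNHG12 rose and SNHG15 fell. With BKM120, SNHG12, EPB41L4A-AS1 and SNHG6 fell and none rose. SNHG12 was the only host called in all 3 comparisons, and its direction differed between them, higher with 18DS and JQ1 and lower with BKM120.

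**Figure D1:**
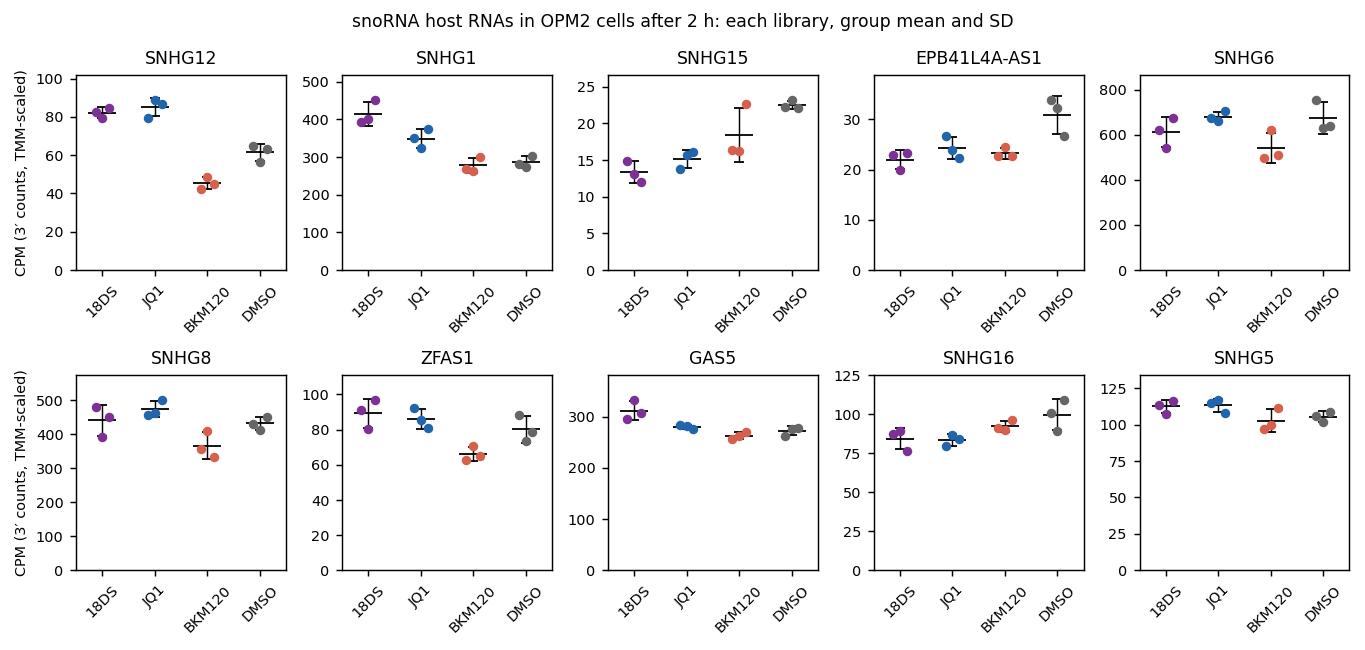
Level of each of the 10 host RNAs in every library (TMM-scaled CPM, linear axes from 0, 1 panel per gene), with points for the 3 libraries of 18DS, JQ1, BKM120 and DMSO and bars for the group mean and SD. SNHG12 sits at 79.4 to 88.8 CPM with 18DS and JQ1, at 42.3 to 48.6 CPM with BKM120 and at 56.5 to 65.0 CPM with DMSO.

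Against DMSO, 18DS changed 6 of the 10 hosts, 3 higher and 3 lower, where 21.0% of all tested genes were called (9.96% higher and 11.0% lower). The median log2 fold change of the 10 was 0.06, beside -0.003 over all genes (-0.01 and -0.08 when library totals were the only scaling), and the single values spread between -0.75 and 0.54. The libraries of 18DS and DMSO did not overlap for the same 6 hosts, as for 35.3% of all genes (16.9% higher and 18.4% lower). JQ1 changed 3 of 10, 2 higher and 1 lower, against 6.08% of all genes (2.63% higher and 3.45% lower), with a median of 0.07 for the hosts. JQ1 and DMSO libraries did not overlap for 5 of 10 (3 higher and 2 lower), as for 25.3% of all genes (12.2% higher and 13.2% lower). BKM120 changed 3 of 10, all lower, against 8.21% of all genes (4.07% higher and 4.14% lower). With BKM120 the estimate was below 0 for each of the 10 hosts (for 8 with upper-quartile factors, SNHG1 and SNHG5 then at 0.00170 and 0.00560, and for SNHG1 also not without DMSO replicate 3), with a median log2 fold change of -0.26, beside 0.0002 over all genes. BKM120 and DMSO libraries did not overlap for 5 of 10, all lower, as for 28.2% of all genes (13.7% higher and 14.5% lower). The 3 comparisons share the same DMSO libraries, so a DMSO library that is high or low moves them together. The hosts were chosen with earlier results of these data known, so their counts beside these shares are a description.

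**Figure D2:**
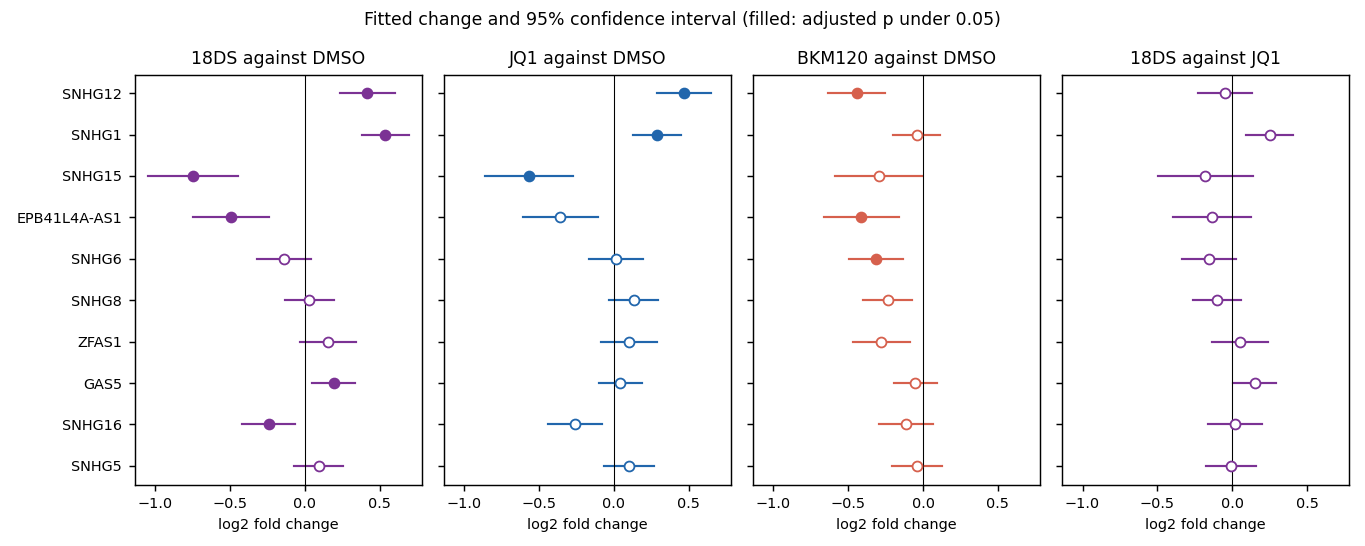
Fitted log2 fold change of each host (x axis) with its 95% confidence interval for 18DS, JQ1 and BKM120 against DMSO and for 18DS against JQ1, with filled points for an adjusted p under 0.05. The values against DMSO lie on both sides of 0 with 18DS and JQ1, and below 0 with BKM120 (-0.44 to -0.04), where SNHG1 and SNHG5 turn above 0 with upper-quartile factors.

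SNHG12 carries 3 box H/ACA RNAs (SNORA16A, SNORA44 and SNORA61) and 1 box C/D RNA (SNORD99). Its level was 82.7, 79.4 and 84.6 CPM in the 18DS libraries and 79.6, 88.8 and 86.9 CPM in the JQ1 libraries, against 65.0, 56.5 and 63.1 CPM in the DMSO libraries. The BKM120 libraries had 42.3, 48.6 and 44.7 CPM. All 18DS and JQ1 libraries were above all DMSO libraries, and all BKM120 libraries were below them. The change was 1.34-fold with 18DS (log2 0.42, SE 0.09, edgeR adjusted p = 0.000764) and 1.38-fold with JQ1 (log2 0.47, SE 0.09, edgeR adjusted p = 0.000535). With BKM120 the level fell by 0.44 on the log2 scale (SE 0.09, 1.36-fold lower, edgeR adjusted p = 0.00200). These 3 calls were kept in all 22 other settings tried. In the order of group means, JQ1 and 18DS overlapped, while DMSO and BKM120 each stood clear of their neighbours. The promoter window of SNHG12 (chr1:28581824-28582123, minus strand, GRCh38.p14) is shown whole because its RNA moved in both directions, with capitals for TATATAA and for the pyrimidine run.
SNHG12: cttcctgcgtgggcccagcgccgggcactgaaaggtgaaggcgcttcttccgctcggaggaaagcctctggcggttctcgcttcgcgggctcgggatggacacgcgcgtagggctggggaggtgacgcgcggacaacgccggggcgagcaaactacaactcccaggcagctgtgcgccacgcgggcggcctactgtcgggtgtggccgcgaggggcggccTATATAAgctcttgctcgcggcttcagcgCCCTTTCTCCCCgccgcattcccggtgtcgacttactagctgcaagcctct
The letters TATATAA, searched on both strands after the windows had been read, occur in 3 of the 8 windows, those of SNHG12, SNHG5 and ZFAS1, and in 2.6% of all 35116 windows. In SNHG12 and SNHG5 they begin 30 and 32 bases before the start, and ZFAS1 has a pair of overlapping matches at 32 and 31 bases before it. The related letters TATAAA occur in 1 of 8 windows (SNHG1) and in 11.5% of all. CACGTG, the E-box bound by MYC with MAX, and TGTTTAC, the letters bound by FOXO factors, were not found in the 8 windows and occur on either strand in 7.3% and 3.4% of all windows.

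SNHG1, the host first described as the U22 host gene, carries the box C/D RNAs SNORD22 and SNORD25 to SNORD31 among 9 annotated small RNAs. It had 392, 402 and 451 CPM in 18DS libraries, against 281, 273 and 304 CPM in DMSO libraries. The JQ1 libraries, with 350.4, 324 and 373 CPM, lay between those groups without overlapping either, and the BKM120 libraries, with 269, 264 and 301 CPM, overlapped the DMSO libraries. The rise with 18DS was the largest among the 10 hosts (1.45-fold, log2 0.54, SE 0.08, edgeR adjusted p = 3.09e-06). With JQ1 it was 1.22-fold (log2 0.29, SE 0.08, edgeR adjusted p = 0.0178), and that call was lost without JQ1 replicate 1 (edgeR adjusted p = 0.0656), JQ1 replicate 3 (0.149), DMSO replicate 1 (0.0532) or DMSO replicate 2 (0.118). BKM120 gave -0.04 (95% interval -0.20 to 0.11, edgeR adjusted p = 0.795). The 18DS call was kept in all 22 other settings.

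SNHG15, which carries SNORA9 and is among the noncoding RNAs known for a short half-life, was the host that fell most with 18DS and with JQ1. Its level was 14.9, 13.2 and 12.002 CPM in 18DS libraries and 13.8, 15.6 and 16.1 CPM in JQ1 libraries, against 22.2, 23.2 and 22.2 CPM in DMSO libraries. In BKM120 it was 16.4, 16.2 and 22.6 CPM, with the third library inside the DMSO range. The 18DS and JQ1 libraries were all below the DMSO libraries and overlapped each other. The level fell by 0.75 with 18DS (SE 0.15, 1.68-fold lower, edgeR adjusted p = 0.000314) and by 0.57 with JQ1 (SE 0.15, 1.48-fold lower, edgeR adjusted p = 0.0121), both on the log2 scale. BKM120 gave -0.30 (SE 0.14, edgeR adjusted p = 0.200), which did not pass the threshold. The JQ1 call was lost without JQ1 replicate 1 (edgeR adjusted p = 0.0776) or DMSO replicate 2 (0.0573). This was the least abundant of the 10 by count, with a mean of 85.7 counts per 18DS library and 143 per DMSO library, and its SE was the widest.

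EPB41L4A-AS1, the host of SNORA13, was lower than DMSO in each treatment. It had 22.8, 19.8 and 23.4 CPM in 18DS libraries, 26.7, 23.8 and 22.4 CPM in JQ1 libraries and 22.7, 24.5 and 22.6 CPM in BKM120 libraries, against 33.9, 32.4 and 26.7 CPM in DMSO libraries. The 3 treated groups overlapped with each other, and the lowest DMSO library, replicate 3, touched the highest JQ1 library. The fall was 0.49 on the log2 scale with 18DS (SE 0.12, edgeR adjusted p = 0.00392) and 0.41 with BKM120 (SE 0.12, edgeR adjusted p = 0.0326). With JQ1 the estimate was -0.36 (SE 0.12, edgeR adjusted p = 0.0805). The BKM120 call was lost without BKM120 replicate 1 (edgeR adjusted p = 0.116) or 3 (0.119), without DMSO replicate 1 (0.178) or 2 (0.104), and with upper-quartile factors (0.0569), whereas the 18DS call was kept in all 22 other settings.

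SNHG6, SNHG8 and ZFAS1 had their lowest group mean with BKM120, as did SNHG12, SNHG1, GAS5 and SNHG5. SNHG6, the host of SNORD87, had 498, 619 and 509 CPM in BKM120 libraries, against 754, 629.6 and 639 CPM in DMSO libraries, and the groups did not overlap. It fell by 0.31 on the log2 scale (SE 0.09, 1.24-fold lower, edgeR adjusted p = 0.0235), a call that was lost without BKM120 replicate 1 (edgeR adjusted p = 0.143), BKM120 replicate 3 (0.132) or DMSO replicate 1 (0.158). The JQ1 libraries had 676, 663 and 703 CPM and the 18DS libraries 622, 539 and 673 CPM, and both groups overlapped DMSO.

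SNHG8, the host of SNORA24, had 356, 411 and 332 CPM with BKM120, against 429.9, 413 and 452 CPM with DMSO. ZFAS1, which carries SNORD12, SNORD12B and SNORD12C and starts beside ZNFX1 on the other strand, had 62.5, 70.4 and 65.0 CPM with BKM120, against 88.2, 73.3 and 78.8 CPM with DMSO. In both genes every BKM120 library was below every DMSO library, but neither passed the threshold, with log2 fold changes of -0.24 for SNHG8 (95% interval -0.40 to -0.07, edgeR adjusted p = 0.0617) and -0.28 for ZFAS1 (95% interval -0.47 to -0.09, edgeR adjusted p = 0.0573). With 18DS, SNHG8 had 481, 392 and 449 CPM and ZFAS1 90.9, 80.2 and 96.6 CPM, and with JQ1 they had 457, 463 and 499.7 CPM and 92.4, 85.3 and 80.9 CPM. None of these differences from DMSO passed the test, although every JQ1 library was above every DMSO library for SNHG8 (log2 0.13, SE 0.08, edgeR adjusted p = 0.411).

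The mitochondrial share of counts was set beside SNHG6, SNHG8, ZFAS1 and SNHG12, and in BKM120 and 18DS beside the other hosts. Its order against them differed between groups and between genes. Within BKM120, replicates 1 and 3 had mitochondrial shares of 7.41% and 7.65% of counts and replicate 2 had 6.99%. SNHG6, SNHG8, ZFAS1, SNHG12 and EPB41L4A-AS1 were highest in replicate 2. GAS5 (269.9 CPM), SNHG1 (301 CPM), SNHG5 (112 CPM), SNHG15 (22.6 CPM) and SNHG16 (96.1 CPM) were instead highest in replicate 3, which had the highest share. Among the 18DS libraries, replicate 2 had the highest mitochondrial share (7.60%, against 6.95% and 7.06% in the others) and the lowest SNHG6, SNHG8, ZFAS1 and SNHG12. SNHG5 and EPB41L4A-AS1 were lowest there too, GAS5 and SNHG16 were highest there, and SNHG1 and SNHG15 lay between the other libraries. In JQ1, replicate 1 had the lowest share (6.61%, against 7.04% and 6.94% in the others), the lowest SNHG8 and SNHG12 and the highest ZFAS1, with SNHG6 between the other libraries. In DMSO replicate 1 had the highest share (6.97%, against 6.59% and 6.56% in the others) and the highest SNHG6, ZFAS1 and SNHG12, the other way from BKM120 and 18DS. SNHG8 was highest in DMSO replicate 3, which had the lowest share (6.56%). The part of these shares in the result was not tested.

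GAS5, the growth arrest-specific transcript, holds 11 annotated small RNAs, the most of the 10 hosts, of which 10 are box C/D. It had 295, 332 and 307 CPM in 18DS libraries, against 262, 276 and 279 CPM in DMSO libraries. The JQ1 libraries had 283, 282 and 276 CPM and the BKM120 libraries 257, 261 and 269.9 CPM, both overlapping DMSO. The rise with 18DS was 1.143-fold (log2 0.19, SE 0.07, edgeR adjusted p = 0.0493), close to the threshold. That call was kept in 10 of 22 other settings. It was lost without 18DS replicate 2 (log2 0.15, edgeR adjusted p = 0.181) or 3 (0.0801), JQ1 replicate 2 (0.0628), BKM120 replicate 1 (0.0547), DMSO replicate 1 (0.124), 2 (0.0913) or 3 (0.0737). It was also lost when scaled by library totals alone (log2 0.12, edgeR adjusted p = 0.221) or without an expression filter (0.128). The same held with the 2 groups alone (0.103), the replicate block (0.0573) or no robust option (0.0554). With JQ1 and BKM120 the log2 fold changes were 0.04 (95% interval -0.10 to 0.19, edgeR adjusted p = 0.823) and -0.05 (95% interval -0.20 to 0.09, edgeR adjusted p = 0.720).

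SNHG16 carries SNORD1A, SNORD1B and SNORD1C. Its level was 87.4, 89.0 and 76.6 CPM in 18DS libraries and 79.3, 86.8 and 83.9 CPM in JQ1 libraries, against 101, 89.4 and 109 CPM in DMSO libraries. The BKM120 libraries had 90.8, 89.8 and 96.1 CPM and overlapped DMSO. The 18DS and JQ1 libraries lay below the DMSO libraries, by a narrow gap to DMSO replicate 2. The log2 fold change was -0.24 with 18DS (SE 0.09, edgeR adjusted p = 0.0478) and -0.26 with JQ1 (SE 0.09, edgeR adjusted p = 0.0767), close estimates on either side of the threshold. The 18DS call was kept in 3 of 22 other settings, those without 18DS replicate 2, without DMSO replicate 2 or scaled by library totals, and over all 22 its edgeR, limma or DESeq2 adjusted p was 0.00890 to 0.236.

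SNHG5, the host of SNORD50A and SNORD50B, was called in no comparison. It had 113, 107 and 116 CPM in 18DS libraries, 115, 117 and 108 CPM in JQ1 libraries and 96.8, 99.8 and 112 CPM in BKM120 libraries, against 106, 102 and 109 CPM in DMSO libraries. All groups overlapped. The 95% intervals of its log2 fold change against DMSO were -0.07 to 0.26 with 18DS, -0.07 to 0.27 with JQ1 and -0.21 to 0.13 with BKM120.

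18DS and JQ1 were given at the same dose and for the same time, so their difference was tested directly. None of the 10 hosts passed the edgeR test of 18DS against JQ1, where 4.16% of all genes were called (2.37% higher and 1.78% lower). At an unadjusted p under 0.05 there were 2 (SNHG1 and GAS5), while DESeq2 called 1 (SNHG1) and limma 0. The libraries of the compounds did not overlap for these 2 hosts, both higher with 18DS, as for 24.0% of all genes (11.8% higher and 12.2% lower). SNHG1 was 1.19-fold higher with 18DS (log2 0.25, 95% interval 0.09 to 0.41, edgeR adjusted p = 0.0554). That p was 0.0218 to 0.270 over the other settings and passed the threshold in 9 of 22. GAS5 had a log2 difference of 0.15 (95% interval 0.01 to 0.30, edgeR adjusted p = 0.235). SNHG12, called in both comparisons with DMSO, differed by -0.05 between the compounds (95% interval -0.23 to 0.13), and SNHG15 by -0.18 (95% interval -0.50 to 0.14), so differences within those intervals were not resolved. For the other 6 hosts the estimates were -0.15 to 0.05. BKM120 was given at another dose than 18DS and JQ1, and its values stand beside theirs without a test.

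The small RNAs themselves were hardly captured. RefSeq places 36 small nucleolar RNAs in the 10 genes, 12 of them have an identifier in the count table, and 6 of these had any count. They summed to 65 counts over the 12 libraries, at most 4 in 1 library for a single RNA, and none was tested. The measurements above are of polyadenylated host transcripts counted at their 3′ ends, which do not tell spliced from unspliced RNA, and the level of the products was not measured by this assay.

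Genes that share a locus with a host matter here because the strand setting of the counting is not given in the sources used here, and reads of overlapping genes may not be separable. GAS5-AS1, annotated opposite GAS5, had 8136 counts in all. Its level averaged 132 ± 20.2 CPM in 18DS and 90.1 ± 14.0 CPM in DMSO (SD, n = 3 each), and it rose with 18DS (log2 0.55, SE 0.13, edgeR adjusted p = 0.00607), in the same direction as GAS5. With BKM120 its estimate was 0.36 (SE 0.13, edgeR adjusted p = 0.107), where that of GAS5 was -0.05. With JQ1 the 2 estimates were 0.08 and 0.04, and neither gene was called. MCMDC2, annotated opposite SNHG6, averaged 254 ± 13.9 CPM in BKM120 and 265 ± 2.89 CPM in DMSO (SD, n = 3 each) and was not called (log2 -0.06, edgeR adjusted p = 0.700). TRNAU1AP opposite SNHG12, ZNFX1 opposite ZFAS1 and EPB41L4A opposite EPB41L4A-AS1 were called in no comparison. For TRNAU1AP the log2 fold changes were -0.13 with 18DS, 0.002 with JQ1 and 0.01 with BKM120, against SE of 0.12. SLC3A2, a subunit of amino acid transporters that starts within 1000 bases of SNHG1 on the other strand, went the other way from SNHG1 with 18DS (log2 -0.27, SE 0.08, edgeR adjusted p = 0.0152). None of the 10 hosts had another identifier within 5% of its counts in every library.

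Other genes of the same biology were read from lists, by their counts of called members beside the shares over all genes given above. Of 17 other tested noncoding hosts, 4 rose and 1 fell with 18DS, 1 rose and 1 fell with JQ1, and 0 rose and 1 fell with BKM120, with median log2 fold changes of 0.04, -0.005 and -0.05. SNHG3 (log2 0.57, SE 0.09), SNHG25 (0.57, SE 0.12), SNHG9 (0.42, SE 0.10) and SNHG19 (0.37, SE 0.08) rose with 18DS. SNHG3 rose with JQ1 as well (0.29, SE 0.09) and SNHG17 fell with it (-0.43, SE 0.14), and SNHG7 fell with BKM120 (-0.34, SE 0.08). Between 18DS and JQ1, SNHG25 was higher with 18DS (0.47, SE 0.12) and none was lower, and 0 of the 17 were called by edgeR without 18DS replicate 2 or when scaled by library totals alone.

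Of 47 tested protein-coding hosts, 11 rose and 4 fell with 18DS, 1 rose and 4 fell with JQ1, and 7 rose and 3 fell with BKM120, with medians of 0.07, -0.003 and -0.02. HSPA8, the constitutive HSC70 chaperone, had log2 fold changes of 0.39 with 18DS (SE 0.07), 0.42 with JQ1 (SE 0.07) and -0.50 with BKM120 (SE 0.07, edgeR adjusted p = 6.19e-06), the same directions as SNHG12. WDR43, a nucleolar factor of small subunit assembly, fell with 18DS (-0.86, SE 0.09), JQ1 (-0.63, SE 0.09) and BKM120 (-0.34, SE 0.09). RPL10 rose with 18DS (0.42, SE 0.07) and BKM120 (0.33, SE 0.07), and RPL27A rose with 18DS (0.41, SE 0.08). DKC1 (-0.30, SE 0.07) and the import receptor TNPO2 (-0.38, SE 0.09) fell with JQ1. In 18DS against JQ1, 6 were higher and 0 lower, among them RPL10 (0.42, SE 0.07) and RPL27A (0.42, SE 0.08), and without 18DS replicate 2 it was 3 and 0. The list holds 22 ribosomal protein genes and 5 of the other TOP mRNAs.

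TOP mRNAs were set beside the hosts, for which 5 of 8 windows held a pyrimidine run within 10 bases of the annotated start. Of 77 cytosolic ribosomal protein genes, 37 rose and 0 fell with 18DS, 0 were called with JQ1 by edgeR, DESeq2 or limma (3 at an unadjusted p under 0.05), and 13 rose and 0 fell with BKM120, with medians of 0.18, 0.03 and 0.09. RPS9 rose with 18DS (0.50, SE 0.08) and BKM120 (0.39, SE 0.08), RPS14 with 18DS (0.37, SE 0.07) and RPL29 with BKM120 (0.40, SE 0.09). In 18DS against JQ1, 20 were higher and 0 lower, and without 18DS replicate 2 it was 11 and 0. When scaled by library totals alone, 21 ribosomal protein genes rose and 1 fell with 18DS, and 7 rose and 3 fell with BKM120. Of 32 other TOP mRNAs, 6 rose and 2 fell with 18DS, 0 were called with JQ1 by edgeR, DESeq2 or limma (1 at an unadjusted p under 0.05), and 4 rose and 0 fell with BKM120, with medians of 0.08, 0.06 and 0.02. The poly(A)-binding protein genes PABPC4 (0.42, SE 0.08) and PABPC1 (0.38, SE 0.09) and the initiation factor gene EIF3G (0.38, SE 0.09) rose with 18DS and EIF3A fell (-0.31, SE 0.08). PABPC4 (0.35, SE 0.08), PABPC1 (0.35, SE 0.09), EIF3G (0.29, SE 0.09) and RACK1 (0.27, SE 0.08) rose with BKM120, and 3 of the 32 (RACK1, EIF3G and PABPC4) were higher with 18DS than with JQ1, against 1 without 18DS replicate 2. With BKM120 none of the 10 hosts rose, with or without a pyrimidine run. SNHG12, which has a run, fell, as did EPB41L4A-AS1, whose window has none, and SNHG6, which has no window here. The difference between the lists was not tested.

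**Figure D3:**
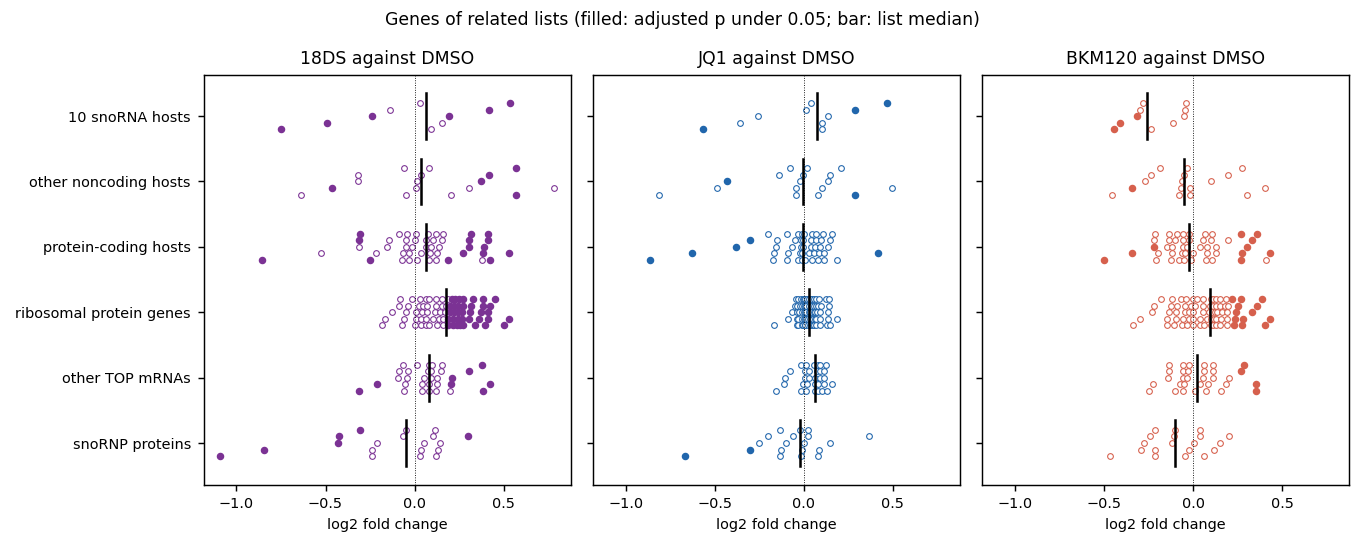
Log2 fold change against DMSO (x axis) of every tested gene in the 10 hosts and 5 related lists, in 3 panels for 18DS, JQ1 and BKM120, with filled points for an adjusted p under 0.05 and a bar at each list's median. With BKM120 the 10 hosts have a median of -0.26, and the 77 ribosomal protein genes have a median of 0.09.

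Of 19 tested genes for proteins that build the mature snoRNP, 1 rose and 5 fell with 18DS, 0 rose and 2 fell with JQ1, and 0 were called with BKM120 by edgeR, DESeq2 or limma (7 at an unadjusted p under 0.05), with medians of -0.05, -0.02 and -0.10. That 0 with BKM120 became 1 lower with RLE factors, 3 lower when scaled by library totals alone and 2 lower without 18DS replicate 2, all by edgeR. NUFIP1, an assembly factor of box C/D particles, fell by 1.09 with 18DS (SE 0.16) and by 0.67 with JQ1 (SE 0.15). NAF1, an assembly factor of box H/ACA particles, fell by 0.85 (SE 0.16), the box C/D core protein gene NOP58 by 0.43 (SE 0.08) and DKC1, which encodes the pseudouridine synthase dyskerin, by 0.31 (SE 0.07) with 18DS, all on the log2 scale. NAF1 (-0.71, SE 0.16) and NOP58 (-0.29, SE 0.08) were also lower with 18DS than with JQ1, the 2 genes called there, and 0 of the 19 were called there by edgeR without 18DS replicate 2.

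Of 22 tested NMD factors, 1 rose and 6 fell with 18DS, 1 rose and 2 fell with JQ1, and 2 rose and 2 fell with BKM120, with medians of -0.17, -0.06 and -0.07. Without 18DS replicate 2, 1 rose and 3 fell with 18DS. UPF2 (-0.72, SE 0.13), SMG8 (-0.76, SE 0.18) and the exon junction gene CASC3 (-0.35, SE 0.10) fell with 18DS. UPF2 fell (-0.43, SE 0.12) and the exon junction helicase gene EIF4A3 rose (0.31, SE 0.08) with JQ1. With BKM120, SMG8 (-0.71, SE 0.18) and CASC3 (-0.31, SE 0.10) fell, and UPF3A (0.33, SE 0.11) and the exonuclease gene XRN1 (0.59, SE 0.13) rose. SMG8 and CASC3 were the 2 called in 18DS against JQ1, both lower with 18DS, and neither was called without 18DS replicate 2. A list of 15 other genes with transcripts known as NMD substrates was read by gene counts, which do not tell such transcripts from others of the same gene. Of these genes, 3 rose and 4 fell with 18DS, 2 rose and 1 fell with JQ1, and 1 rose and 1 fell with BKM120. In 18DS against JQ1, 0 were higher and 1 lower, and the medians against DMSO were -0.04, 0.08 and -0.09. When scaled by library totals alone, 0 rose and 2 fell with JQ1 and 0 rose and 3 fell with BKM120, and without 18DS replicate 2, 3 rose and 2 fell with 18DS. GADD45A rose with 18DS (0.73, SE 0.12), JQ1 (0.42, SE 0.13) and BKM120 (0.41, SE 0.13), ATF4 rose with 18DS (0.29, SE 0.07), TRA2B rose with JQ1 (0.27, SE 0.08), SRSF3 fell with 18DS (-0.31, SE 0.07) and JQ1 (-0.22, SE 0.07), and SRSF7 fell with 18DS (-0.50, SE 0.08) and BKM120 (-0.53, SE 0.08).

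Regulators of TOP translation were mixed. Of 21 tested genes of mTORC1 and LARP1 control, 4 rose and 3 fell with 18DS, 1 rose with JQ1, 2 rose and 3 fell with BKM120, and 1 was higher and 1 lower in 18DS against JQ1, with medians against DMSO of 0.08, 0.01 and 0.02. Without 18DS replicate 2, 2 rose and 3 fell with 18DS. The cap-binding protein gene EIF4E (-0.41, SE 0.09) and the mTOR inhibitor gene DEPTOR (-0.55, SE 0.13) fell and EIF4EBP2 (0.38, SE 0.09) and TSC2 (0.57, SE 0.17) rose with 18DS. EIF4EBP2 rose with JQ1 (0.37, SE 0.09), while AKT1S1 (0.63, SE 0.17) and PDCD4 (0.85, SE 0.27) rose and LARP1B (-0.37, SE 0.10) and TIAL1 (-0.32, SE 0.10) fell with BKM120. Of 12 other tested long noncoding RNAs, which host no listed small RNA, 2 rose and 1 fell with 18DS, 3 rose and 1 fell with JQ1, and 2 rose with BKM120, with medians of 0.04, -0.009 and 0.12. NEAT1, the scaffold of paraspeckles, rose with 18DS (1.31, SE 0.12), JQ1 (0.98, SE 0.12) and BKM120 (0.70, SE 0.12), changes larger than that of any of the 10 hosts in the same comparison. KCNQ1OT1 rose with 18DS (1.57, SE 0.16) and JQ1 (1.403, SE 0.16), MALAT1 rose with JQ1 (0.36, SE 0.08), CYTOR rose with BKM120 (0.29, SE 0.07), and MIR17HG, the host of a microRNA cluster, fell with 18DS (-0.75, SE 0.10) and JQ1 (-0.53, SE 0.10).

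For hosts whose 4 group means of log2 CPM spanned more than 0.5, the genes with the most similar profile were sought by the root mean square difference of the centred group means, among 5327 tested genes with a symbol and at least 20 CPM. These were SNHG12 (span 0.91), SNHG15 (0.74) and SNHG1 (0.58). HSPA8, itself a protein-coding host, was nearest to SNHG12 (difference 0.021), ahead of H3-3B, a histone H3.3 gene (0.067), and HAPSTR1 (0.081). CHCHD7, which encodes a mitochondrial intermembrane protein, was nearest to SNHG1 (0.024), and the dynein regulator gene NDEL1 was also near to it (0.038). HPDL, a mitochondrial dioxygenase gene (0.033), the pseudogene RPL23AP63 (0.034), whose reads may belong to near-identical copies, and LTV1, a small subunit assembly factor gene (0.037), were nearest to SNHG15. The likeness rests on 4 group means per gene and is a description.

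**Figure D4:**
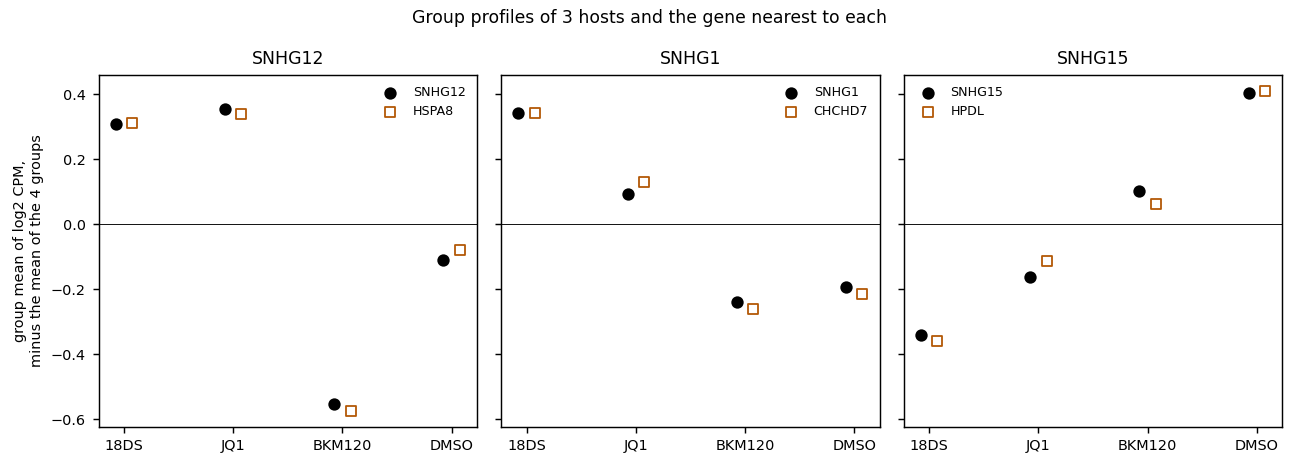
Group means of log2 CPM minus the mean of the 4 groups (y axis) for SNHG12, SNHG1 and SNHG15 (filled) and for the gene nearest to each (HSPA8, CHCHD7 and HPDL, open symbols), in the groups 18DS, JQ1, BKM120 and DMSO. HSPA8 runs beside SNHG12, at 0.31 with 18DS, 0.34 with JQ1, -0.57 with BKM120 and -0.08 with DMSO.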

How the data were processed

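The values used are raw counts per Ensembl gene, which the authors deposited as whole numbers with no normalization, 1 column for each of 12 libraries. Per the submitters' processing notes, the genome build was hg19 and the programs were HISAT2 2.1.0, featureCounts of Subread, SAMtools 1.9, cutadapt 1.7, FastQC 0.11.5, bcl2fastq 2.17.1.14 and limma. Neither the annotation release nor the strand setting is given in the sources used here. The annotation at hand is of GRCh38, so no coordinates of the counted genes are given. It served for overlapping genes (GENCODE v29) and, from RefSeq, for hosted small RNAs and promoter windows.

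Symbols from a table of gene names matched 51662 of 63152 identifiers. The main model was edgeR 4.0.16 under R 4.3.3 (filterByExpr by group with a minimum count of 10 and a minimum total count of 15, TMM, robust quasi-likelihood fit over 4 groups without covariates, common biological coefficient of variation 0.0862). DESeq2 1.42.0 and limma-voom (limma 3.58.1) were alternatives. Plots used matplotlib 3.10.9 (Python 3.11.15). The fit was tested on simulated counts. At this depth the median SE of a log2 fold change was 0.169 to 0.170. Replicates differed by more than counting noise (chi-square per degree of freedom 2.03 to 10.3).

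The 10 genes and the lists were chosen with earlier results of these data known, so they are described by counts and medians. Named genes are the 10 hosts, genes that overlap or start beside them, up to 4 genes per list and comparison with the smallest adjusted p, and the 3 nearest profiles of each host that varied by more than 0.5. Of these genes, 3 are not reported here. Alternatives were 3 other scalings, 2 other tools, 2 other filters, dispersions without the robust option, each comparison's groups alone, leaving out each library in turn, and replicate number as a block.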

Additional observations from a re-analysis of the deposited data

How the results depend on the processing

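Of the 12 host calls over the comparisons, 6 were kept in all 22 other settings, those of SNHG12 in each comparison with DMSO and those of SNHG1, SNHG15 and EPB41L4A-AS1 with 18DS, and the causes of the changes below were not tested. With library totals as the only scaling, 5 hosts were called in BKM120 against DMSO (SNHG8 and ZFAS1 in addition), against 3. In 18DS against JQ1, 1 host (SNHG1) was called, against 0, with upper-quartile factors, DESeq2, no expression filter, a minimum count of 50 or the replicate block. Leaving out 1 library at a time gave 4 to 5 calls with 18DS, 1 to 4 with JQ1, 1 to 5 with BKM120 and 0 to 1 in 18DS against JQ1. The fewest JQ1 calls came without JQ1 replicate 1 and the fewest BKM120 calls without BKM120 replicate 1, BKM120 replicate 3 or DMSO replicate 1. The most JQ1 calls came without 18DS replicate 2 or DMSO replicate 3, and the most BKM120 calls without 18DS replicate 2 or BKM120 replicate 2. Replicate numbers did not pair the libraries, since deviations of same-numbered libraries correlated at -0.13 to 0.09 and 3 of 12 libraries correlated best with their own number, and with the block 4, 3, 3 and 1 hosts were called in the 4 comparisons. Signs turned only for values near 0. With library totals SNHG8 gave -0.0401 with 18DS, SNHG6 -0.0160 with JQ1 and SNHG16 -0.0258 in 18DS against JQ1. With upper-quartile factors SNHG1 and SNHG5 gave 0.00170 and 0.00560 with BKM120, and SNHG5 gave 0.00937 in 18DS against JQ1. Without a filter SNHG6 gave -0.00388 with JQ1 and SNHG5 gave 0.00518 in 18DS against JQ1, where a minimum count of 50 gave 0.00803. With libraries left out, SNHG8 with 18DS ranged over -0.0277 to 0.112, SNHG6 with JQ1 over -0.0319 to 0.104, and SNHG1 with BKM120 over -0.106 to 0.000872. In 18DS against JQ1 the ranges were -0.0329 to 0.0305 for SNHG5, -0.0149 to 0.0878 for SNHG16 and -0.00108 to 0.130 for ZFAS1. Over all genes, library totals called 898 higher and 2021 lower with 18DS, 306 and 555 with JQ1, 439 and 809 with BKM120, and 208 and 414 in 18DS against JQ1, where the TMM scaling called 1313 and 1456, 346 and 455, 536 and 546, and 313 and 235. Upper-quartile factors called 1675 and 1213 with 18DS and 734 and 431 with BKM120. Leaving out 1 library moved the calls over all genes to 504 to 1021 with JQ1 (801 with all libraries), 482 to 1564 with BKM120 (1082) and 105 to 1027 in 18DS against JQ1 (548). SNHG15, the host with the fewest counts, had the widest SE (0.14 to 0.16).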
